A study of Mus musculus with 5 samples.

Results

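Eph receptors and ephrins form the cell-contact signalling family examined here, through 10 of its genes, 7 receptors (Epha1, Epha2, Epha4, Epha7, Ephb2, Ephb3 and Ephb4) and 3 ligands (Efna1, Efnb1 and Efnb2). They were chosen by symbol and all 10 were found among the 16992 gene symbols common to the 5 libraries. Pancreata of adult C57BL/6 mice, 2 to 4 months old, were the source of the cells, which were sorted and lysed without culture and gave 3 RNA-seq libraries labelled CD133(high)CD71(low) and 2 labelled CD133(positive)CD71(negative). Prom1 encodes CD133, a surface glycoprotein of ductal and progenitor cells, and Tfrc encodes CD71, which takes up transferrin. The title of the series ties the CD133(high)CD71(low) sort to progenitors that form colonies. The titles of the samples gave the groups, while a further label field calls the CD133(high)CD71(low) libraries CD71 plus. No transgene or treatment is named for either group, and neither the animals pooled per sort nor the origin of the libraries from separate animals is stated, so the p-values reflect library-to-library spread alone, which may be technical.

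Eph receptors are receptor tyrosine kinases, and their ligands, the ephrins, are themselves bound to the membrane of the neighbouring cell. EphA receptors mainly bind ephrin-A ligands, which a lipid anchor holds at the surface, and EphB receptors mainly bind ephrin-B ligands, which span the membrane. Contact between cells carrying receptor and ligand signals in both directions and is known for repulsion, for the sorting of epithelial cells into compartments and for the separation of arteries, marked by ephrin-B2, from veins, marked by EphB4. By these textbook roles Ephb4 and Efnb2 were taken as vascular members, Epha1, Epha2, Ephb2, Ephb3, Efna1 and Efnb1 as epithelial members (ephrin-A1 is also made by endothelium), and Epha4 and Epha7, best known from the nervous system, as neither.

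The 4 promoters printed here belong to the members that passed the test between the groups and to the vascular pair. They are the 250 bases before the transcript start, 5′ to 3′ on the strand of the gene, from RefSeq on GRCm38.p6. Capitals mark CCAAT boxes (CCAAT or its complement ATTGG) and GC boxes (GGGCGG or its complement CCGCCC).
Efnb2 (chr8:8661243-8661492, minus strand): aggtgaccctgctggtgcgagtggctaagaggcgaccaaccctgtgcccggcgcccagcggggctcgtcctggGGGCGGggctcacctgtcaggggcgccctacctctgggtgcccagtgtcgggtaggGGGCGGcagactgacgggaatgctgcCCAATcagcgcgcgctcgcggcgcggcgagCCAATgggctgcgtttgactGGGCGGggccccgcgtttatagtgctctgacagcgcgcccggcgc
Epha4 (chr1:77515089-77515338, minus strand): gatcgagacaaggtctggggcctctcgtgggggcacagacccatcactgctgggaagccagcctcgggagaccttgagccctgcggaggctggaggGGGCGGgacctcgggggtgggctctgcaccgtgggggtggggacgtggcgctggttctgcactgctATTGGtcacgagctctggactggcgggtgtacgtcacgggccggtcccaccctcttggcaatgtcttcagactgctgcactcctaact
Ephb4 (chr5:137349859-137350108, plus strand): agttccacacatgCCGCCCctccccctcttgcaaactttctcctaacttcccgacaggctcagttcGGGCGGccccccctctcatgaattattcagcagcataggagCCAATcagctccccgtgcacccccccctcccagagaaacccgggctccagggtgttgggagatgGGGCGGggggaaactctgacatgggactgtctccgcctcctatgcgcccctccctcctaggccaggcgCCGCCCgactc
Epha1 (chr6:42373269-42373518, minus strand): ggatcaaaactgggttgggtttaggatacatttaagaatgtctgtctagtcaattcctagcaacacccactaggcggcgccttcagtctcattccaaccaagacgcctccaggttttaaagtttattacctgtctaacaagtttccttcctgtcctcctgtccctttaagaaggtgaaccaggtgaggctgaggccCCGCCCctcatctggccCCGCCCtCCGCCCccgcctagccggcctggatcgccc
Of the printed promoters, those of Efnb2, Epha4 and Ephb4 held at least 1 CCAAT box, while that of Epha1 held none. Among the other members Epha7, Ephb2 and Efnb1, all higher in mean in CD133(high)CD71(low), also held a CCAAT box. Epha2 and Ephb3, higher in mean, and Efna1, lower in mean, held none. A link between the boxes and the direction of change was not tested. In Efnb2 the CCAAT boxes lay 95 to 91 and 65 to 61 bases before the start, in Epha4 the box lay on the other strand 88 to 84 bases before it, and in Ephb4 it lay 143 to 139 bases before it. GC boxes numbered 3 in Efnb2, 1 in Epha4, 4 in Ephb4 and 3 in Epha1. Of 32851 mouse promoter windows of this length, 33.8% held a CCAAT box and 32.7% a GC box on either strand, and over the 12 windows of the 10 members 7 held the first and 10 the second. The core GGAA of ETS factors stood in all 4 promoters and in 93.4% of windows. The longer TGGGAA, which contains GGAA and is the core bound by the Notch effector RBPJ, stood once in Epha4, in none of the other 3 and in 21.6% of windows.

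Values are those deposited, on a scale inferred to be RPKM (reads per kilobase, corrected for depth), which allows levels of different genes to be set side by side. Depth read from the steps of low values was 30.9 to 41.8 M reads in the CD133(high)CD71(low) libraries, against 25.5 and 19.8 M reads in the CD133(positive)CD71(negative) libraries. At these depths a member's value rested on about 91 (Ephb3) to 3576 (Ephb4) reads per library, if its longest coding transcript is taken as its length. Differences were tested with limma on log2(RPKM + 1) over all 11769 genes with a mean of at least 1. The p-values were adjusted by Benjamini and Hochberg and called under 0.05, and fold changes on this scale understate those of low genes. All 10 members passed the filter, but Epha4 was below 1 in every CD133(high)CD71(low) library and Ephb2 and Ephb3 were below 1 in both CD133(positive)CD71(negative) libraries, so these 3 reached the filter mostly through the group where they were higher. CD133(high)CD71(low) library 3 was deposited with 22522 gene symbols, against 18618 in every other library, and the reason is not stated. It also stood apart, with a Pearson correlation across genes of 0.911 and 0.920 to libraries 1 and 2 of its group, against 0.994 between those. Results are therefore also given without it.

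Summed marker levels differed between the groups, and these values stand beside every result on the members. The sum of 15 epithelial and ductal markers, among them Epcam and Krt19, was 5191 to 7342 RPKM in CD133(high)CD71(low) and 3589 and 3823 RPKM in CD133(positive)CD71(negative). Spp1 alone made 55.8 to 66.0% of that sum in CD133(high)CD71(low) and 63.7 and 63.4% in CD133(positive)CD71(negative) and did not pass, and without it the sum was 2297, 2228 and 2496 RPKM in CD133(high)CD71(low), against 1304 and 1398 RPKM in CD133(positive)CD71(negative). The sum of 15 endothelial markers was 90.4 to 274 RPKM in CD133(high)CD71(low) and 1006 and 939 RPKM in CD133(positive)CD71(negative), and all 15 fell. Of those 15 none was at 0 in any library, and Pecam1, the endothelial adhesion gene, still measured 25.5, 15.1 and 9.17 RPKM in CD133(high)CD71(low), against 99.7 and 88.6 RPKM in CD133(positive)CD71(negative). The leukocyte sum was 39.8 to 73.9 RPKM in CD133(high)CD71(low) and 1385 and 1367 RPKM in CD133(positive)CD71(negative), and 10 of 11 tested leukocyte markers fell. The mesenchymal sum was 83.6 to 89.7 RPKM in CD133(high)CD71(low) and 212 and 194 RPKM in CD133(positive)CD71(negative), with 6 of 9 tested markers lower. The Schwann and neural sum was 2.62 to 3.62 RPKM in CD133(high)CD71(low) and 19.0 and 18.0 RPKM in CD133(positive)CD71(negative), with 3 of 4 tested markers lower and 1 of 8 listed at 0 in a library. Low markers, such as Sox10 and the mesenchymal Thy1 (means of 1.42 and 1.52 RPKM without library 3), reached the filter mostly through the group where they were higher. The filter thus favours falls among the low markers that were tested. Acinar enzyme genes made 87596 to 195787 RPKM in CD133(high)CD71(low) and 231564 and 206706 RPKM in CD133(positive)CD71(negative), and none of 11 passed. Endocrine genes made 1511, 1758 and 565 RPKM in CD133(high)CD71(low) and 1720 and 1546 RPKM in CD133(positive)CD71(negative), with 4 of 8 tested lower, and without library 3, 3 were higher and 4 lower. Without library 3 the epithelial and ductal markers counted 14 higher of 15, the endothelial 15 lower of 15, the leukocyte 11 lower of 11, the mesenchymal 7 lower of 10 and the Schwann and neural 4 lower of 4, and no acinar gene passed. In that setting 40.9% of all genes tested were called higher and 12.2% lower. With either CD133(positive)CD71(negative) library left out, no epithelial, endothelial, mesenchymal or endocrine marker passed, while 10 leukocyte markers did. Without CD133(high)CD71(low) library 2, 1 epithelial, 6 endothelial and 2 mesenchymal markers passed, and without library 1, 2 epithelial and 15 endothelial markers did. In sorted populations measured in bulk, fewer cells of a type and less RNA per cell cannot be told apart. The part of these marker differences in the members' results was not tested. Over all genes tested 6.25% were called higher in CD133(high)CD71(low) and 7.22% called lower, with a median log2 fold change of 0.31, and higher calls made 46.4% of all calls. Under median-of-ratios scaling, which equalises the typical gene between libraries, that share was 16.6% and the median 0.02.

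Between the groups, Efnb2 and Epha4 fell, Epha1 rose, and the other 7 members did not pass the test. The count of 1 higher and 2 lower among 10 compares with that background of 6.25% and 7.22% of all genes. The median log2 fold change of the members was 0.17, against 0.31 for all genes. The groups did not overlap in 9 of the 10, CD133(high)CD71(low) being higher in 5 and lower in 4, while 70.2% of all genes tested did not overlap (58.2% higher and 12.0% lower). Without library 3, Epha1, Epha2 and Epha7 were called higher and Efna1, Efnb2 and Epha4 lower among the 9 members then tested, against 40.9% of all genes called higher and 12.2% lower. Under median-of-ratios scaling no member was called higher and 2, Efnb2 and Epha4, were called lower, against 1.93% and 9.68% of all genes. With those 4 libraries and that scaling, Epha1 was higher and Efna1, Efnb2, Epha4 and Ephb4 were lower, against 12.3% and 18.1% of all genes. With a CD133(positive)CD71(negative) library left out, that group holds 1 library, and effect sizes alone are given here. Without its library 1 the log2 fold changes were -1.24 for Efnb2, -1.17 for Epha4 and 0.50 for Epha1. Without its library 2 they were -1.38, -1.04 and 0.81.

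**Figure D1:**
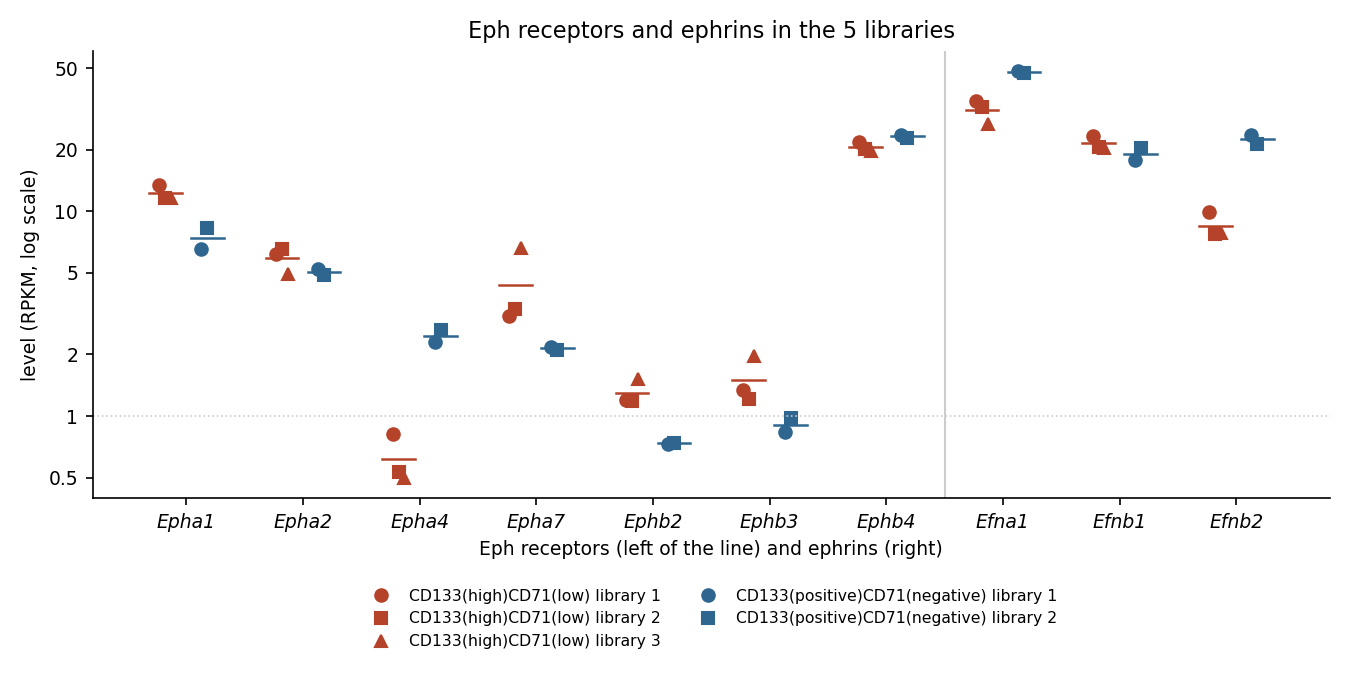
Level of each Eph receptor and ephrin in RPKM (log scale) in the 3 CD133(high)CD71(low) libraries (red, left of each pair) and the 2 CD133(positive)CD71(negative) libraries (blue), with bars at the group means. Efna1 lies highest in both groups, Efnb2 and Epha4 are lower in every red library than in both blue ones, and library 3 (triangle) stands out for Epha7.

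Efna1 was the highest member in both groups. In CD133(high)CD71(low) the order by mean was Efna1 (31.3 ± 4.07 RPKM), Efnb1 (21.5 ± 1.56), Ephb4 (20.5 ± 1.06), Epha1 (12.3 ± 1.06), Efnb2 (8.51 ± 1.196), Epha2 (5.89 ± 0.83), Epha7 (4.34 ± 1.96), Ephb3 (1.51 ± 0.40), Ephb2 (1.30 ± 0.18) and Epha4 (0.61 ± 0.17; SD, n = 3). In CD133(positive)CD71(negative) Efna1 (47.8 ± 0.85 RPKM) again came first, followed by Ephb4 (23.3 ± 0.57), Efnb2 (22.5 ± 1.54), Efnb1 (19.1 ± 1.83), Epha1 (7.44 ± 1.26), Epha2 (5.06 ± 0.23), Epha4 (2.46 ± 0.22), Epha7 (2.14 ± 0.046), Ephb3 (0.90 ± 0.099) and Ephb2 (0.73 ± 0.0057; SD, n = 2). Neighbours in these orders that differed by less than the larger of their SDs were Efnb1 and Ephb4, Epha2 and Epha7, and Ephb3 and Ephb2 in CD133(high)CD71(low), and Ephb4 and Efnb2 in CD133(positive)CD71(negative). Efnb2 thus stood level with Ephb4 in one population and below Epha1 in the other.

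The vascular pair parted. Efnb2 (chromosome 8, 8617434 to 8661242, mm10), encoding ephrin-B2, the arterial ligand, had 9.90, 7.78 and 7.86 RPKM in CD133(high)CD71(low), against 23.6 and 21.4 RPKM in CD133(positive)CD71(negative). All CD133(high)CD71(low) values lay far below both others. The log2 fold change was -1.31 (SE 0.15, 95% confidence interval -1.68 to -0.94, limma adjusted p = 0.00572), and without library 3 it was -1.26 (limma adjusted p = 2.17e-05). Ephb4 (chromosome 5, 137350109 to 137378669), encoding the venous receptor of ephrin-B2, had 21.7, 20.2 and 19.7 RPKM in CD133(high)CD71(low), against 23.7 and 22.9 RPKM in CD133(positive)CD71(negative). Its groups did not overlap but lay close together, and the log2 fold change of -0.17 did not pass (95% confidence interval -0.45 to 0.10, limma adjusted p = 0.273). That interval holds no fall as large as the one of Efnb2. Without library 3 the log2 fold change of Ephb4 was -0.15 (limma adjusted p = 0.166), and with median-of-ratios scaling of the same 4 libraries it was -0.37 and passed (limma adjusted p = 0.0103).

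Per library, Ephb4 stood at 2.197, 2.59 and 2.51 times the level of Efnb2 in CD133(high)CD71(low), and at 1.00 and 1.07 times in CD133(positive)CD71(negative). With 3 libraries against 2, an exact two-sided permutation test of such a ratio cannot go below p = 0.2. Set against the endothelial markers, Ephb4 made 7.93, 12.0 and 21.8 RPKM per 100 RPKM of the endothelial sum in CD133(high)CD71(low), and 2.35 and 2.44 in CD133(positive)CD71(negative). While the endothelial sum was 274, 168 and 90.4 RPKM in CD133(high)CD71(low) libraries 1, 2 and 3, Ephb4 stayed between 19.7 and 21.7 RPKM. Efnb2 made 3.61, 4.63 and 8.70 RPKM per 100 RPKM of the endothelial sum in CD133(high)CD71(low), and 2.34 and 2.28 in CD133(positive)CD71(negative). Both vascular members were thus lower by less than the endothelial sum was.

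Arterial and venous markers were read beside this pair. Of 8 arterial markers all 8 fell, with a median log2 fold change of -2.13, although 4 passed without CD133(high)CD71(low) library 2 and 0 with either CD133(positive)CD71(negative) library left out (medians of -2.19 to -2.07). Their sum was 27.4 to 62.0 RPKM in CD133(high)CD71(low), against 209.6 and 196 RPKM in CD133(positive)CD71(negative). They include Gja4, encoding an arterial gap junction protein (12.1, 7.32 and 2.82 RPKM in CD133(high)CD71(low), against 42.6 and 41.5 RPKM in CD133(positive)CD71(negative)). The sum of 6 venous markers was 7.21 to 9.90 RPKM in CD133(high)CD71(low), against 24.3 and 22.4 RPKM in CD133(positive)CD71(negative). Of 4 tested venous markers 3 fell, Nrp2, Vwf and Flt4, with log2 fold changes of -1.31, -1.75 and -1.68. Nrp2, with a mean of 1.67 RPKM without library 3, reached the filter mostly through the group where it was higher. The venous transcription factor gene Nr2f2 did not pass, at 2.42, 2.59 and 5.28 RPKM in CD133(high)CD71(low) and 1.40 and 1.75 RPKM in CD133(positive)CD71(negative), and was called higher without library 3 (limma adjusted p = 0.00864). Of the venous markers 1 passed without CD133(high)CD71(low) library 2 and 0 with either CD133(positive)CD71(negative) library left out.

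**Figure D2:**
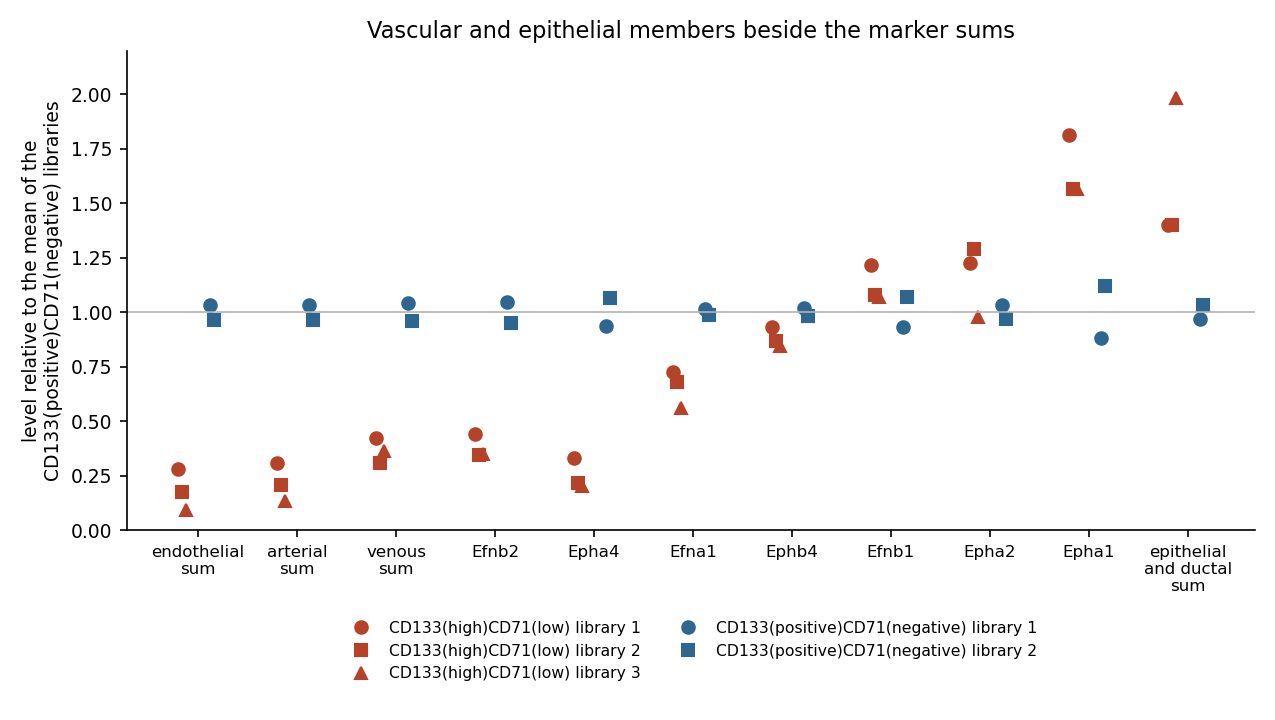
Level of 7 members and of the summed marker lists in each library, divided by the mean of the CD133(positive)CD71(negative) libraries, so that 1 is the level in that group. Ephb2, Ephb3 and Epha7 are not drawn, and lay at 1.62 to 2.05, 1.34 to 2.18 and 1.44 to 3.08 in CD133(high)CD71(low). In CD133(high)CD71(low) (red) the endothelial sum lies at 0.093 to 0.282, Efnb2 at 0.346 to 0.440, Ephb4 at 0.846 to 0.933 and the epithelial and ductal sum at 1.40 to 1.98.

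Among the EphA receptors, Epha1 rose and Epha4 fell. Epha1 (chromosome 6, 42358487 to 42373268) encodes a receptor of epithelial cells and had 13.5, 11.6 and 11.6 RPKM in CD133(high)CD71(low), against 6.54 and 8.33 RPKM in CD133(positive)CD71(negative). The groups did not overlap, and the log2 fold change was 0.66 (SE 0.15, limma adjusted p = 0.0456). The call held without library 3 (limma adjusted p = 0.00145) but not under median-of-ratios scaling, which lowers the median of all genes to 0.02 and left Epha1 at 0.35 (limma adjusted p = 0.291), nor with any other single library left out (limma adjusted p of 0.124 to 0.384). Per 1000 RPKM of the epithelial and ductal sum, Epha1 made 2.60, 2.24 and 1.58 RPKM in CD133(high)CD71(low) and 1.82 and 2.18 RPKM in CD133(positive)CD71(negative), and on this measure the groups overlapped. With Spp1 left out of the sum, a choice made after seeing the data, Epha1 made 5.87, 5.23 and 4.66 RPKM in CD133(high)CD71(low) and 5.02 and 5.96 RPKM in CD133(positive)CD71(negative), which again overlapped. An exon of Epha1 overlaps one of Zyx on the opposite strand, which measured 32.6, 29.8 and 27.6 RPKM in CD133(high)CD71(low) and 39.5 and 41.7 RPKM in CD133(positive)CD71(negative), the other way round, and whether strand was used in counting is not stated.

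Epha4 (chromosome 1, 77367185 to 77515088), a receptor that binds ephrins of both classes, had 0.81, 0.53 and 0.50 RPKM in CD133(high)CD71(low), against 2.31 and 2.62 RPKM in CD133(positive)CD71(negative). Its log2 fold change was -1.10 (SE 0.14, limma adjusted p = 0.00773), and the ratio of the means was 0.25 without the pseudocount. Epha4 was the lowest member in CD133(high)CD71(low) and lay above Epha7, Ephb3 and Ephb2 in CD133(positive)CD71(negative). Epha7 (chromosome 4, 28813131 to 28967499), a receptor of ephrin-A ligands, showed the opposite order, with 3.09, 3.33 and 6.60 RPKM in CD133(high)CD71(low) and 2.17 and 2.11 RPKM in CD133(positive)CD71(negative). Library 3 was well above the other 4, and the log2 fold change of 0.71 did not pass (SE 0.29, limma adjusted p = 0.143), while without library 3 it was 0.42 and passed (limma adjusted p = 0.00652). Epha2 (chromosome 4, 141301240 to 141329384), an epithelial receptor of ephrin-A1, had 6.21, 6.52 and 4.95 RPKM in CD133(high)CD71(low), against 5.22 and 4.90 RPKM in CD133(positive)CD71(negative). Its groups overlapped through library 3, the log2 fold change of 0.18 did not pass (95% confidence interval -0.20 to 0.56), and its sign turned under median-of-ratios scaling (-0.11). Without library 3, Epha2 passed at 0.28 (limma adjusted p = 0.027).

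The epithelial EphB receptors were low in every library. Ephb2 (chromosome 4, 136647539 to 136835988), which with Ephb3 is known for positioning cells along the intestinal crypt, had 1.203, 1.19 and 1.51 RPKM in CD133(high)CD71(low), against 0.73 and 0.74 RPKM in CD133(positive)CD71(negative). Ephb3 (chromosome 16, 21204755 to 21223305) had 1.34, 1.21 and 1.96 RPKM in CD133(high)CD71(low), against 0.83 and 0.97 RPKM in CD133(positive)CD71(negative). For both genes every CD133(high)CD71(low) library was above the others, and neither passed, with log2 fold changes of 0.40 (95% confidence interval 0.10 to 0.70, limma adjusted p = 0.0804) and 0.39 (95% confidence interval -0.02 to 0.80, limma adjusted p = 0.149). Both passed under quantile normalization (0.77 and 0.65, limma adjusted p = 0.00915 and 0.024) but not under median-of-ratios scaling (0.24 and 0.20, limma adjusted p = 0.188 and 0.342). Ephb4 was 5.67 to 8.54 times the sum of Ephb2 and Ephb3 in CD133(high)CD71(low), against 15.2 and 13.4 times in CD133(positive)CD71(negative). An exon of Ephb4 overlaps Zan on the opposite strand, and Zan was at 0.035 RPKM or less in all 5 libraries.

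Neither of the other ligands passed the main test over all 5 libraries. Efna1 (chromosome 3, 89271733 to 89281142), encoding ephrin-A1, had 34.7, 32.5 and 26.8 RPKM in CD133(high)CD71(low), against 48.4 and 47.2 RPKM in CD133(positive)CD71(negative). The groups lay apart, and the log2 fold change of -0.60 did not pass (SE 0.15, limma adjusted p = 0.0527) and passed without library 3 (-0.50, limma adjusted p = 0.00104). With all 5 libraries Efna1 also passed narrowly without the filter (limma adjusted p = 0.0467) and under quantile normalization (-0.89, limma adjusted p = 0.0483). Per 1000 RPKM of the epithelial and ductal sum, Efna1 made 6.69, 6.26 and 3.65 RPKM in CD133(high)CD71(low), against 13.5 and 12.3 RPKM in CD133(positive)CD71(negative). Relative to its receptor gene Epha2, Efna1 was 5.59, 4.98 and 5.42 times as high in CD133(high)CD71(low), against 9.27 and 9.63 times in CD133(positive)CD71(negative). Efnb1 (chromosome X, 99136130 to 99148991), encoding the ephrin-B1 that faces EphB2 and EphB3 in epithelia, had 23.3, 20.6 and 20.5 RPKM in CD133(high)CD71(low), against 17.8 and 20.4 RPKM in CD133(positive)CD71(negative). The groups nearly touched, and the log2 fold change of 0.16 did not pass (95% confidence interval -0.16 to 0.48, limma adjusted p = 0.36) and changed sign under median-of-ratios scaling (-0.17). Efnb2 was 0.43, 0.38 and 0.38 times as high as Efnb1 in CD133(high)CD71(low), against 1.32 and 1.05 times in CD133(positive)CD71(negative).

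**Figure D3:**
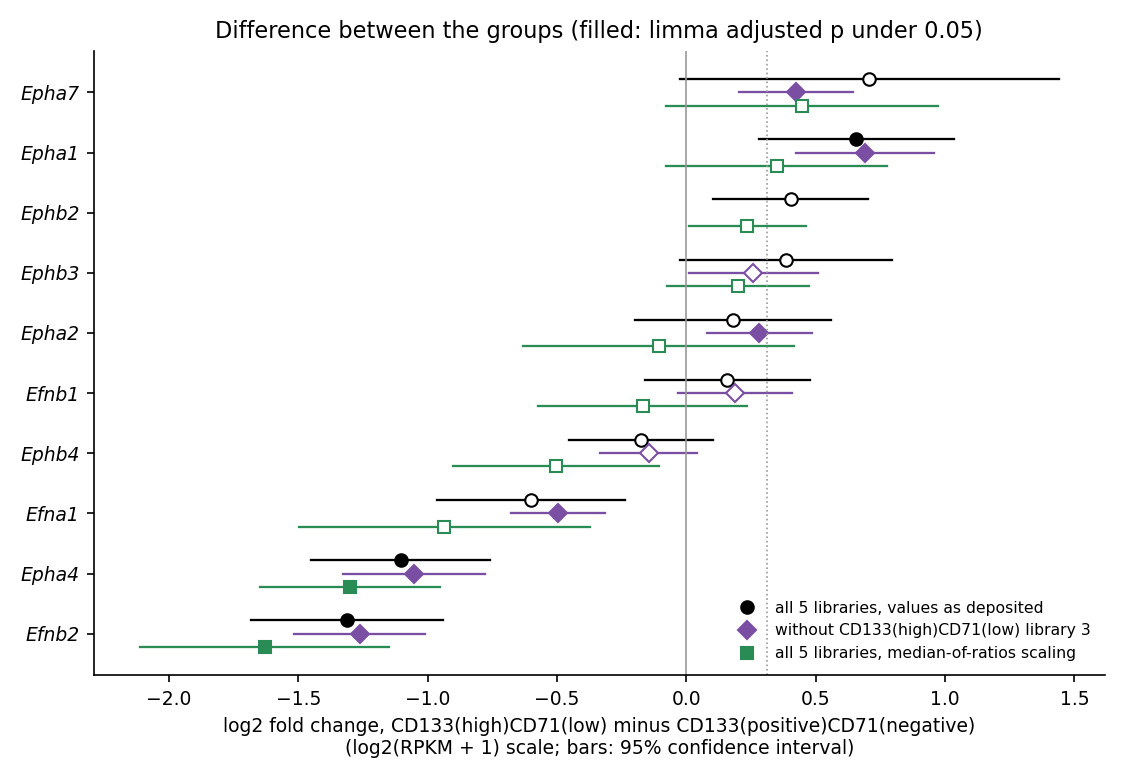
Log2 fold change of each member, positive where CD133(high)CD71(low) is higher, with its 95% confidence interval, over all 5 libraries (black circles), without library 3 (purple diamonds) and with median-of-ratios scaling (green squares), filled where the limma adjusted p is under 0.05; the dotted line is the median of all genes, 0.31. Efnb2 and Epha4 are filled in all 3 settings, while Epha1 is open under median-of-ratios scaling.

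Of the 6 members taken as epithelial, Epha1 rose and the other 5 did not pass, Efna1 being lower in mean and Epha2, Ephb2, Ephb3 and Efnb1 higher. Of 15 epithelial and ductal markers 12 rose and none fell, with a median log2 fold change of 0.80, but 3 rose under median-of-ratios scaling (median 0.45) and 5 under quantile normalization. Per 1000 RPKM of the epithelial and ductal sum, with or without Spp1, Efna1, Efnb1 and Epha2 were lower in every CD133(high)CD71(low) library than in both CD133(positive)CD71(negative) libraries. So were Ephb4, Efnb2 and Epha4. The sum with Spp1 stood at 1.40 to 1.98 times its CD133(positive)CD71(negative) mean in CD133(high)CD71(low). A gene that rises less than the sum is therefore lower on this measure. The share of all genes set apart on it was not computed. With Spp1 in the sum, as planned, Ephb2 made 0.206 to 0.232 RPKM per 1000 RPKM in CD133(high)CD71(low), against 0.203 and 0.193 RPKM in CD133(positive)CD71(negative). The groups then did not overlap, CD133(high)CD71(low) being higher by little. Without Spp1 Ephb2 made 0.524 to 0.605 RPKM per 1000 RPKM in CD133(high)CD71(low), against 0.560 and 0.528 RPKM in CD133(positive)CD71(negative), and the groups overlapped. Ephb3 overlapped on both sums, at 0.233 to 0.268 RPKM in CD133(high)CD71(low) against 0.232 and 0.255 RPKM in CD133(positive)CD71(negative) with Spp1. Without Spp1 it made 0.544 to 0.787 RPKM in CD133(high)CD71(low), against 0.639 and 0.696 RPKM in CD133(positive)CD71(negative).

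Summed levels of receptors and ligands are given here without a test. The 7 receptor members summed to 47.9, 44.6 and 46.9 RPKM in CD133(high)CD71(low), against 41.5 and 42.6 RPKM in CD133(positive)CD71(negative). The 3 ephrin members summed to 67.9, 60.9 and 55.2 RPKM in CD133(high)CD71(low), against 89.8 and 89.0 RPKM in CD133(positive)CD71(negative). The EphA members made 22.04 to 23.7 RPKM in CD133(high)CD71(low), against 16.2 and 18.0 RPKM in CD133(positive)CD71(negative). The EphB members made 22.6 to 24.3 RPKM in CD133(high)CD71(low), against 25.3 and 24.6 RPKM in CD133(positive)CD71(negative).

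Among the other 12 Eph receptors and ephrins, 10 had values in all 5 tables, 3 passed the filter, and none of these 3 passed the test (0 by limma over all 5 libraries, all 3 at an unadjusted p under 0.05). Ephb6, a receptor without kinase activity, had 11.4, 11.0 and 15.3 RPKM in CD133(high)CD71(low), against 6.56 and 7.78 RPKM in CD133(positive)CD71(negative) (log2 fold change 0.72, limma adjusted p = 0.0573), and made 19.2 to 24.6% of the summed receptor RPKM in CD133(high)CD71(low), against 13.5 and 15.3% in CD133(positive)CD71(negative). Efna4 had 13.2, 11.6 and 10.04 RPKM in CD133(high)CD71(low), against 6.90 and 8.69 RPKM in CD133(positive)CD71(negative) (log2 fold change 0.52, limma adjusted p = 0.0938). Efna4 and Efna1 both lie on chromosome 3, and Efna1 was 2.62, 2.79 and 2.67 times as high as Efna4 in CD133(high)CD71(low), against 7.01 and 5.43 times in CD133(positive)CD71(negative). Efna5 had 3.84, 3.80 and 5.53 RPKM in CD133(high)CD71(low), against 2.502 and 3.07 RPKM in CD133(positive)CD71(negative) (limma adjusted p = 0.125). All 3 passed without library 3 (limma adjusted p of 0.00135, 0.00227 and 0.0211). The remaining receptors Epha3, Epha5, Epha8 and Ephb1 were at 0.53 RPKM or less in every library, and the ephrins Efna2, Efna3 and Efnb3 were at 1.25 RPKM or less.

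Partners inside the cell moved both ways. Of 34 genes of Eph and ephrin signalling 29 were tested, of which 5 rose and 4 fell, against 6.25% and 7.22% of all genes, with a median log2 fold change of 0.35, near the 0.31 of all genes. Grb7, an adaptor that binds EphB1, rose, with 41.8, 42.5 and 50.8 RPKM in CD133(high)CD71(low) against 22.7 and 24.6 RPKM in CD133(positive)CD71(negative) (log2 fold change 0.90, limma adjusted p = 0.014). Ngef, encoding ephexin-1, which acts downstream of EphA4, rose likewise, with 27.5, 25.3 and 27.1 RPKM in CD133(high)CD71(low) against 14.9 and 16.3 RPKM in CD133(positive)CD71(negative). Arhgef16, a further member of the ephexin family, had 27.2, 26.5 and 31.0 RPKM in CD133(high)CD71(low), against 14.995 and 17.0 RPKM in CD133(positive)CD71(negative). Cnksr1 and Src, named after their values were seen, were the others that rose, and under median-of-ratios scaling Ngef and Cnksr1 no longer passed (limma adjusted p = 0.113 and 0.2). Without library 3, 15 of 31 rose and 7 fell, against 40.9% and 12.2% of all genes, and with a CD133(positive)CD71(negative) library left out none rose and 1 fell. Without CD133(high)CD71(low) library 1, 1 rose and 4 fell, and without library 2 none rose and 4 fell.

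The partners that fell included genes of endothelial cells and leukocytes. Sla, an adaptor known from lymphocytes, had 0.11, 0.11 and 0.18 RPKM in CD133(high)CD71(low), against 4.43 and 4.37 RPKM in CD133(positive)CD71(negative) (log2 fold change -2.25, limma adjusted p = 0.000469). Its values in CD133(high)CD71(low) were all below 1, so it reached the filter through the group where it was higher. Rgs3, which acts downstream of ephrin-B ligands on G protein signalling, had 8.13, 6.30 and 7.09 RPKM in CD133(high)CD71(low), against 21.9 and 19.7 RPKM in CD133(positive)CD71(negative). Fyn, a Src family kinase, had 2.91, 2.28 and 2.61 RPKM in CD133(high)CD71(low), against 7.51 and 7.72 RPKM in CD133(positive)CD71(negative). Arhgef15, the ephexin of vascular cells and named after its values were seen, had 4.27, 2.65 and 1.27 RPKM in CD133(high)CD71(low), against 17.2 and 16.9 RPKM in CD133(positive)CD71(negative).

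Of 17 enzymes that cleave ephrins and Eph receptors or remove their phosphate, 11 were tested, 1 rose and 2 fell, against 6.25% and 7.22% of all genes. Mmp14, a membrane-bound metalloproteinase, rose, with 43.4, 44.4 and 43.3 RPKM in CD133(high)CD71(low) against 24.0 and 26.2 RPKM in CD133(positive)CD71(negative) (log2 fold change 0.78, limma adjusted p = 0.0111). Under median-of-ratios scaling Mmp14 did not pass (0.44, limma adjusted p = 0.119), and 0 enzyme genes were higher and 3 lower. Ptprb, the vascular endothelial phosphatase, fell, with 13.3, 8.68 and 4.39 RPKM in CD133(high)CD71(low) against 49.3 and 46.1 RPKM in CD133(positive)CD71(negative). The gelatinase gene Mmp2 fell as well, with 0.85, 1.14 and 0.20 RPKM in CD133(high)CD71(low) against 3.33 and 2.77 RPKM in CD133(positive)CD71(negative). Mmp2 too reached the filter mostly through the group where it was higher. Adam10, a sheddase of ephrin-A ligands named after its values were seen, did not pass, at 9.42, 10.3 and 18.1 RPKM in CD133(high)CD71(low) and 12.1 and 14.1 RPKM in CD133(positive)CD71(negative). Without library 3, 4 enzyme genes rose and 4 fell, against 40.9% and 12.2% of all genes; without CD133(high)CD71(low) library 1 none rose and 1 fell, and with any other library left out none passed.

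**Figure D4:**
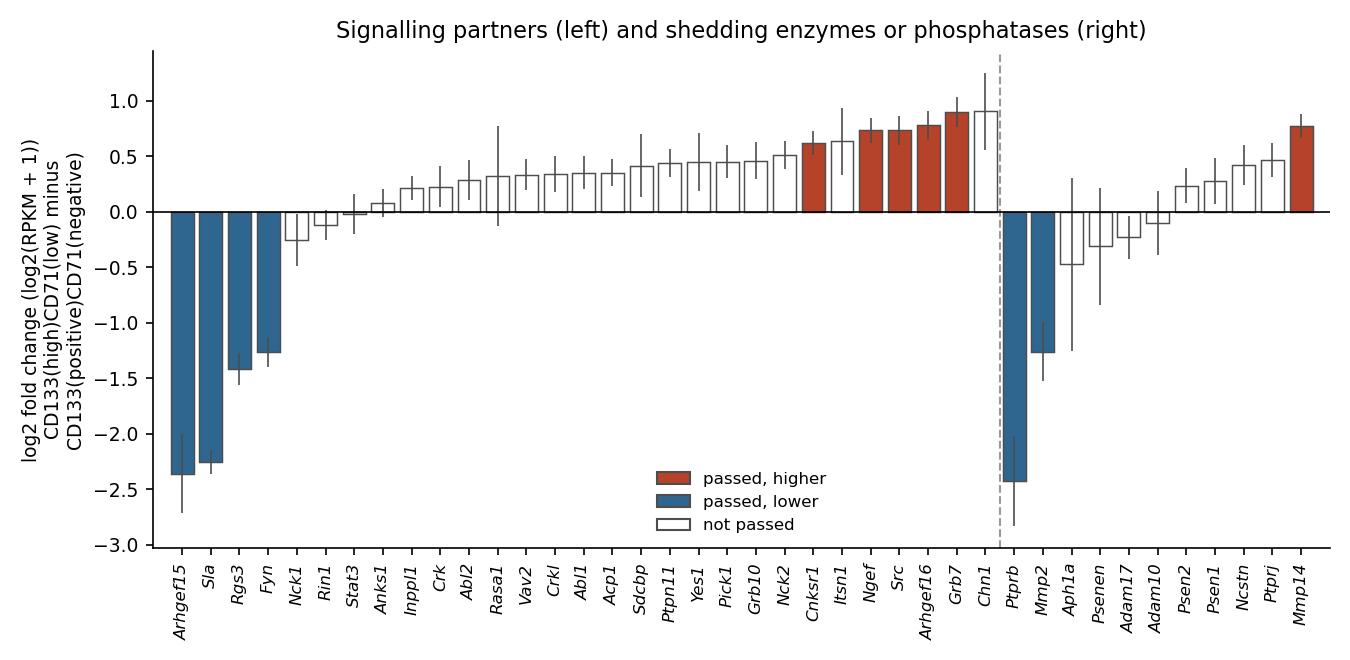
Log2 fold change on the log2(RPKM + 1) scale, positive where CD133(high)CD71(low) is higher, with its standard error for the 29 tested signalling partners (left of the dashed line) and the 11 tested cleaving enzymes and phosphatases (right), coloured where limma's adjusted p is under 0.05. The falls of Arhgef15, Sla and Ptprb are over 2 in size, while no rise that passed exceeds 0.90.

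Genes with the most similar pattern were sought among the 11769 tested by the root mean square difference of centred log2 values over the 5 libraries. For Efnb2 they were Adarb1 (difference 0.017), an RNA editing enzyme gene, Clic4 (0.024) and Acer2 (0.042), and Clic4 had 18.1, 14.04 and 13.97 RPKM in CD133(high)CD71(low), against 41.5 and 38.6 RPKM in CD133(positive)CD71(negative). For Ephb4 they were Nckipsd (0.014), the tumour necrosis factor receptor gene Tnfrsf1a (0.018) and the kinase gene Prkd2 (0.028). For Epha1 they were the tight junction gene Tjp3 (0.027), Col27a1 (0.031) and Tead3 (0.038), and for Epha4 they were the kinase gene Fes (0.019), Gpr30 (0.039) and Tril (0.048). None of these 12 genes is in a marker list used here. Many genes share a pattern over so few libraries, and the differences are given as a description.

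The genes of the sorting markers did not pass over all 5 libraries and were called higher without library 3 (limma adjusted p = 0.000208 for Prom1 and 0.0112 for Tfrc). Prom1 measured 72.8, 74.7 and 133 RPKM in CD133(high)CD71(low), against 45.8 and 48.8 RPKM in CD133(positive)CD71(negative), and Tfrc measured 5.34, 6.84 and 12.2 RPKM in CD133(high)CD71(low), against 4.00 and 4.36 RPKM in CD133(positive)CD71(negative).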

How the data were processed

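Each library has 1 deposited table of a gene symbol and a value. The unit is not stated. The authors' deposited values behaved as RPKM: for genes with 1 transcript in GENCODE M21, low values times transcript length fell within 0.05 reads of a whole multiple of 1 step in 51.3 to 55.2% of cases, against 10.0% by chance, and the step gave the depth. FPKM cannot be told apart in this way, and too few values were whole to rebuild counts. Per the submitters' processing notes Partek and mm10 were used; for aligner and annotation, the sources used here give no name. A row of library 3 that names no gene (74.2 M alignments) was left out. Library 3 is the CD133(high)CD71(low) sample with an unnumbered title.

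The test was limma 3.58.1 in R 4.3.3 (group alone, empirical Bayes with a mean-variance trend) on log2(RPKM + 1). It was tried on simulated data, where 6.22% of the calls over 5 libraries were false. The simulated spread came from the 4 numbered libraries, so the added spread of library 3 was not covered. Tables used Python 3.11.15 and pandas 2.3.3. Alternatives were a pseudocount of 0.1, no filter, a mean of at least 5, each library left out, quantile normalization, median-of-ratios scaling, the 4 numbered libraries with scaling, and the replicate number as a block. Every member is named; other family genes are named where their mean is above 1, signalling genes where they are among the 3 smallest p in a direction, and the 3 nearest patterns for called members and the vascular pair; marker genes named as examples (Pecam1, Gja4, Nr2f2) were chosen after their values were seen. The members, lists and tests were chosen with earlier results of these data known. All 10 members were matched by symbol to RefSeq promoters (GRCm38.p6) and to GENCODE M21 positions (mm10).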

Additional observations from a re-analysis of the deposited data

How the results depend on the processing

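Efnb2 and Epha4 kept their direction in every alternative run, with log2 fold changes of -1.63 to -1.24 for Efnb2 and -1.87 to -0.99 for Epha4, and lost their calls only when a CD133(positive)CD71(negative) library was left out (limma adjusted p = 0.127 or 0.102 for Efnb2 and 0.121 or 0.133 for Epha4), which leaves that group with 1 library assumed to vary like the others. Epha1 kept its direction (0.35 to 0.81) and lost its call in 7 of 12 alternatives. Among members, 1 was higher and 2 were lower in the main test. The number higher was 0 with a mean of at least 5 and with median-of-ratios scaling, against 6.44% and 1.93% of all genes. It was 2 with quantile normalization, Ephb2 and Ephb3, against 7.15% of all genes, while Epha1 then did not pass (limma adjusted p = 0.173). It was 0 to 3 with each CD133(high)CD71(low) library left out in turn. The number lower was 1 with a mean of at least 5 (6 members tested), against 4.02% of all genes. It was 4 with both median-of-ratios scaling and the 4 numbered libraries, against 18.1%. Without a filter and with quantile normalization it was 3, Efna1 being added, against 10.2% and 8.81%. It was 2 or 3 with each CD133(high)CD71(low) library left out. Signs turned for Epha2 (-0.11 with median-of-ratios scaling and -7.3e-05 with quantile normalization) and Efnb1 (-0.17, -0.12 with quantile normalization and -0.03 in the 4 numbered libraries with scaling), neither past the threshold. Over all genes, 735 were higher and 850 lower. The higher count was 227 with median-of-ratios scaling, 1446 in the 4 numbered libraries with that scaling and 0 to 4785 with each library left out. The lower count was 1729 without a filter, 315 with a mean of at least 5, 2122 in the 4 numbered libraries with scaling and 154 to 1425 with each library left out. Of all calls 46.4% were higher in the main test, 16.6% with median-of-ratios scaling and 77.1% without library 3; the cause was not tested. Marker sums taken over each library's own symbols were the same by construction, since every listed marker was present in every library.

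With the replicate number as a block, 5 members were higher and 3 lower, as were 5325 and 1492 of all genes (45.2% and 12.7%). Library 3 then gives no contrast. This fit leaves hardly any spread of its own per gene, so its p-values rest on a variance pooled over genes. Its calls are therefore no check on the main test. Whether libraries of the same number share animals or a sort is not stated. The difference between libraries 1 and 2 correlated at -0.02 across genes between the groups. No deviation shared by number was thus seen, but this correlation cannot decide whether the libraries are paired.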
